A study of Homo sapiens with 18 samples.

Results

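Messenger RNA of 46 genes of the actin cytoskeleton and of focal adhesions was followed across 18 RNA-seq libraries of MSC-hTERT cells, a human mesenchymal stem cell line immortalized with telomerase. The genes were chosen by symbol for their known roles in actin binding, actomyosin contraction and adhesion, and no measured value enters the rule, although the list was drawn up with earlier results of these data known. Each of the 46 symbols matched 1 Ensembl identifier of the 61487 in the count table, and all 46 were among the 18544 genes with enough counts to be tested. They were set in 5 roles: 10 core adhesion proteins, 10 LIM-domain proteins, 7 crosslinkers, 8 myosin chains and calponin-like proteins, and 11 factors of filament assembly and turnover. The libraries form 6 groups of 3. Cells of the first group carry pMSCV, which is the name of a retroviral vector and is taken here as the control. Cells of the second group carry SRF, the serum response factor. The other 4 groups carry a fusion of SRF with FOXO1 (a forkhead transcription factor), ICA1L (an islet autoantigen-like protein), PDGFRB (a receptor tyrosine kinase) or RELA (an NF-kB subunit). All 6 groups share the parent line, its telomerase transgene and the same medium, which contained serum, FGF-2, ascorbic acid and heparin. The labels do not say whether the libraries of a group came from separate cultures, so p-values measure only the spread between these libraries.

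Focal adhesions are the sites where integrin receptors in the cell membrane are tied to actin filaments inside the cell. Talin and kindlin bind the integrin tails, vinculin and alpha-actinin strengthen the link to actin, and non-muscle myosin pulls on the filaments, which bundle into stress fibres. Many of these genes are known targets of SRF, which binds a DNA element called the CArG box together with cofactors that sense the pool of unassembled actin. Mesenchymal stem cells in culture spread flat and build prominent stress fibres.

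Library totals ran from 19362319 to 29806771 counts, and the 46 genes together took between 1.31% and 2.25% of them. Values are given as CPM, which sets each count relative to its library total, here with the totals adjusted by TMM, a scaling that allows for differences in composition. SRF itself, counted from native and construct reads together, was at 60.4, 62.2 and 54.7 CPM in libraries 1, 2 and 3 of pMSCV and at 1041, 1099 and 669 CPM in SRF. It was at 148, 230.0 and 184 CPM with SRF-FOXO1, 283, 303 and 278 with SRF-ICA1L, 328, 157 and 246 with SRF-PDGFRB and 326, 336 and 323 with SRF-RELA, above pMSCV in each of the 15 other libraries. The mesenchymal markers ENG, NT5E and THY1 were counted in all 18 libraries, with a summed level of 576 to 937 CPM. Markers of other cells were low as whole lists. The 4 blood markers summed to 0.909 to 4.16 CPM over all libraries, with CD34 up to 3.41 CPM, CD14 up to 0.765 and PTPRC up to 0.2698. That sum was 0.909 to 1.85 CPM with pMSCV and 1.15 to 2.24 with SRF-PDGFRB, against 1.99 to 3.77 with SRF, 2.004 to 4.099 with SRF-FOXO1, 3.02 to 4.16 with SRF-ICA1L and 1.82 to 3.698 with SRF-RELA. The 3 striated muscle markers summed to at most 1.24 CPM, in an SRF-FOXO1 library, with DES up to 1.196 CPM and MYOG at 0 in all libraries, and the 2 fat cell markers to at most 0.213, with ADIPOQ at 0. The 2 epithelial markers summed to 0.591 to 1.54 CPM with SRF-FOXO1 and 0.509 to 0.569 with SRF-ICA1L, above the 0.0699 to 0.297 with pMSCV, and the 2 neural ones to 2.09 to 6.91 CPM over all libraries. The 3 endothelial markers summed to 7.002 to 27.8 CPM, most of it PECAM1, with the highest sum in an SRF library. The part of these cells in the results was not tested. A pair of libraries stood apart in the length of the transcripts they favoured, SRF replicate 3 and SRF-FOXO1 replicate 1. Their log2 level fell by 0.0932 and 0.0536 per doubling of exon length across all tested genes, against slopes of -0.0171 to 0.0404 in the other 16 libraries. The highest slope, 0.0404, was that of SRF-FOXO1 replicate 2, ahead of 0.0278 in SRF-PDGFRB replicate 2. Where counts of called genes moved without both libraries that stood apart, those counts are therefore also given. Values of single genes are not given that way. This alternative was chosen after the data were seen. It keeps SRF-FOXO1 replicate 2, and so is not a full correction for length.

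A gene was called in a comparison when its edgeR quasi-likelihood p-value, adjusted by Benjamini-Hochberg over all 18544 genes, was under 0.05. Counts at an unadjusted p under 0.05 are given without the share of all tested genes at that level. They therefore do not set the listed genes apart from other genes. Libraries of different groups with the same number deviated from their group means together, as described under the processing. Where adding that number to the model as a block changed a count, the blocked count is given beside the first one. Those of the 46 genes whose call it changed are named, many with their blocked values. The exceptions are SRF-FOXO1 against SRF, where number 1 of the pairs missed the limit for pairing, and the test over the 6 groups, which includes that pair. Their blocked fits called 17 of the 46 genes each and are given in the closing section, and among those genes are some that are given below as missing the threshold without the block. Differences between groups are log2 fold changes with a standard error (SE), taken as their size divided by the square root of the F value of the test.

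Promoters were searched for sequence motifs, since SRF acts through a known element. RefSeq windows of 300 bases, from 250 before to 50 after the annotated start (GRCh38.p14), were at hand for 44 of the 46 genes. A CArG box, searched on both strands, lay in 2 of the 44 windows (4.55%), those of CNN2 and FLNA, against 1.29% of 27305 windows of the same length. The TEAD motif GGAATG lay in 7 windows (15.9%, against 14% of all), the AP-1 motif TGANTCA in 3 (6.82%, against 7.76%), an NF-kB site in 10 (22.7%, against 10.8%) and the FOXO motif GTAAACA in none (against 3.41%). The CNN2 and FLNA windows are shown because they hold the element that SRF binds, with the CArG box in capitals, and the CSRP1 window because CSRP1 was the most changed of the 46 genes, with its NF-kB match, read on the reverse strand, in capitals. The box began 89 bases before the start in CNN2 (chr19:1026358-1026657, plus strand) and 94 before in FLNA (chrX:154374585-154374884, minus strand). The match in CSRP1 (chr1:201507074-201507373, minus strand) began 199 bases before the start, and that window was chosen after the values were seen. These are matches of letters, and binding was not measured.
CNN2: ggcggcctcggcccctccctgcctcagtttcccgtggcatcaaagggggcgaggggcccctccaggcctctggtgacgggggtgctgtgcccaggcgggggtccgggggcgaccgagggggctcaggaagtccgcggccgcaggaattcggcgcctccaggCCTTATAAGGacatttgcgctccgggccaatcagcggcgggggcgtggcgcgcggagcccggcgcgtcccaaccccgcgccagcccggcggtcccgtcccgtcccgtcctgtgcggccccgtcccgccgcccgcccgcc
FLNA: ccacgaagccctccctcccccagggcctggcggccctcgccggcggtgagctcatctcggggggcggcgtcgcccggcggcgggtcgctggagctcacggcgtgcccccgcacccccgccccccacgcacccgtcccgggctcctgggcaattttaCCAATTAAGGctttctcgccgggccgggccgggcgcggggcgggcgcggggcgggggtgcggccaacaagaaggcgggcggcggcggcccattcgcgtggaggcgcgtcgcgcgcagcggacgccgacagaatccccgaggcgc
CSRP1: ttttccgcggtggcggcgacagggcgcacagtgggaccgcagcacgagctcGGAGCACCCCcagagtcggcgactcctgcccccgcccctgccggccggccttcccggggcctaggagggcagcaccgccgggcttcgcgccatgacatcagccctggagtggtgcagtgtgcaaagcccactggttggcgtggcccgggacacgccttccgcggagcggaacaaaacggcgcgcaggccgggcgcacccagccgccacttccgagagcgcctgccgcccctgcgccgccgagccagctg
Neither CNN2 nor FLNA was called in any of the 15 pairs of groups, with or without the block. CSRP1, picked for its values, was called in 4 without it. The NF-kB match also lay in ILK, PDLIM5, PDLIM7, TAGLN2, TGFB1I1, TLN1, VASP, VCL and ZYX. Of these, ILK, TAGLN2, TGFB1I1 and TLN1 were not called in any pair in either fit. A window with no match says only that these letters do not stand in it.

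The first question was how the 46 genes as a group stood in each construct against the vector. In SRF-FOXO1, 43 of the 46 genes had a log2 fold change above 0 against pMSCV, with a median of 0.43 against 0.01 over all tested genes, of which 51.7% lay above 0. Of the 6 libraries compared, leaving out SRF-FOXO1 replicate 2 moved that median most. Relative to the mean of the 18 libraries, the median of the 46 genes was -0.03, 0.55 and 0.21 on the log2 scale in SRF-FOXO1 replicates 1, 2 and 3 and -0.17, -0.10 and -0.19 in those of pMSCV. Without SRF-FOXO1 replicate 2 the median fold change was 0.31, and without SRF-FOXO1 replicate 1 it was 0.50. In SRF-ICA1L, 44 lay above 0, with a median of 0.29 against -0.01 over all genes, 49.1% of which lay above 0. SRF-RELA had 41 above 0 and a median of 0.17 (all genes -0.01), and SRF-PDGFRB had 35 and a median of 0.10 (all genes 0.0035). In SRF, 23 lay above 0 and 23 below, and the median was 0.0033 (all genes 0.01). The 5 comparisons share the pMSCV libraries, so their values are set side by side only. The RNA came from whole cultures, in which fewer cells of a kind and less RNA per cell cannot be told apart. Scaling by total counts moved the median of all genes by up to 0.114 on the log2 scale, and the calls are relative to the TMM scale.

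**Figure D1:**
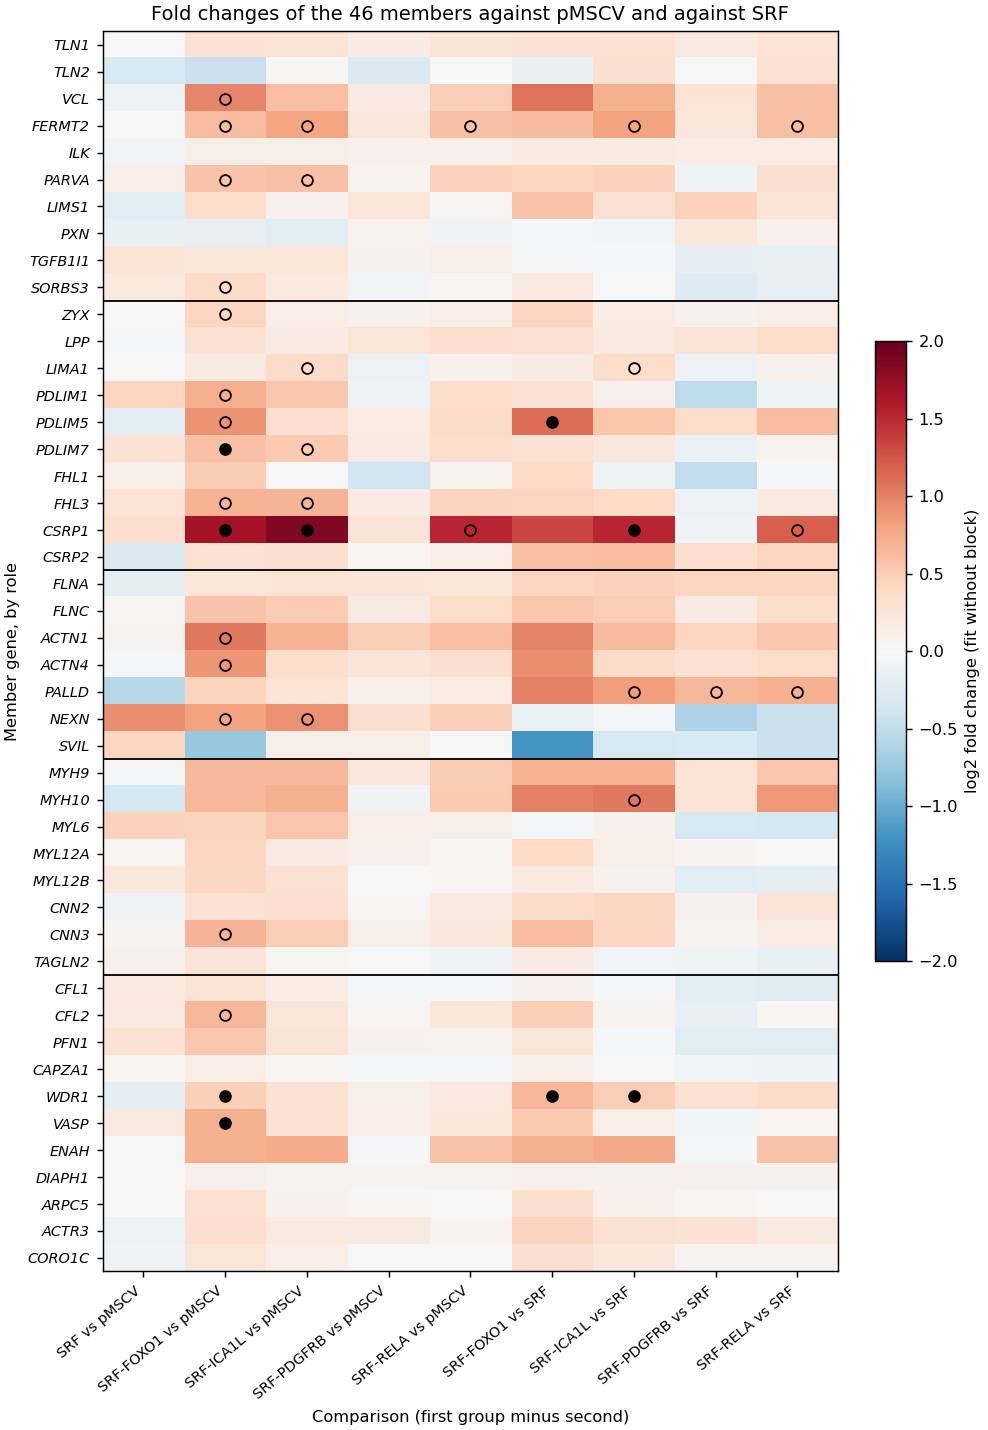
Log2 fold changes (colour) of the 46 genes, in rows by role, in each construct against pMSCV and in each fusion against SRF, from the fit without block. Filled circles mark genes called in that fit and open circles genes called only with the replicate block, which is not marked for SRF-FOXO1 against SRF. The columns of SRF-FOXO1 and SRF-ICA1L are mostly red, and CSRP1 has the deepest colour.

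Against pMSCV, 4 of the 46 genes were called in SRF-FOXO1, all higher: PDLIM7, CSRP1, WDR1 and VASP (0.928% of all tested genes were called in either direction, edgeR). With the replicate block 17 were called, all higher, against 7.03% of all genes. Without SRF-FOXO1 replicate 1 and SRF replicate 3, 20 were called, against 4.0% of all genes in that fit. The calls of the first fit did not hold when single libraries were left out. Leaving out replicate 1, 2 or 3 of pMSCV or replicate 2 of SRF-FOXO1 ended each of the 4, with adjusted p from 0.0893 to 0.265. The share of all genes called fell as well, to 0.0158%, 0.24%, 0.0632% and 0.193% in that order. Without SRF-FOXO1 replicate 1, 15 genes were called (2.29% of all genes). In SRF-ICA1L, 1 gene was called, CSRP1 (0.469% of all genes), and 7 with the block, all higher (4.66%). That call was lost without any single pMSCV library (0.153% to 0.214% of all genes called) or without SRF-ICA1L replicate 2 (0.237%). Without SRF-ICA1L replicate 1, 2 genes were called (0.771% of all genes).

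In SRF-RELA, 0 of the 46 genes were called by edgeR (0.183% of all genes), with 6 at an unadjusted p under 0.05 and 1 called by DESeq2 (0.701%). The block fit called FERMT2 and CSRP1, both higher (0.971%), and leaving out SRF-RELA replicate 1 from the first fit gave 1 call (0.245%). In SRF-PDGFRB, 0 were called by edgeR in either fit (0.0324% of all genes without and 0.178% with the block). There, 0 had an unadjusted p under 0.05 in the first fit, and 0 were called by DESeq2 (0.108%). In SRF, 0 were called by edgeR in either fit (0.0270% and 0.243% of all genes). There, 5 had an unadjusted p under 0.05 in the first fit, and DESeq2 called 0 (0.194%).

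The fusions were next set against SRF. Reads of SRF itself ran from 669 to 1099 CPM in SRF and from 148 to 336 CPM in the fusions. A fusion yields such reads only from the part of SRF that it holds, so these values do not compare construct levels directly. The partner and the level of the construct cannot be told apart in these comparisons. SRF-FOXO1 had 2 genes called higher, PDLIM5 and WDR1 (1.36% of all genes), and a median log2 fold change of 0.39 over the 46. The count moved with single libraries, and the share of all genes called moved with it. It was 11 without SRF replicate 3 (4.53% of all genes), 15 without SRF-FOXO1 replicate 1 (3.31%), 22 without both (5.5%) and 4 without SRF-FOXO1 replicate 3 (0.912%). It was 1 without SRF replicate 1 (0.206%) or SRF-FOXO1 replicate 2 (0.36%), and 0 without SRF replicate 2 (0.104%). SRF-ICA1L had 2 called higher, CSRP1 and WDR1 (0.782%), and 6 with the block (4.73%), with a median of 0.26. Without both libraries that stood apart 4 were called (1.36%), and leaving out any 1 of the 6 libraries left 0 or 1 (0.25% to 0.578% of all genes). SRF-PDGFRB had 0 called by edgeR (0.146%), 6 at an unadjusted p under 0.05 and 1 by DESeq2 (1.23%). The block fit called PALLD higher in SRF-PDGFRB than in SRF (2.34% of all genes). SRF-RELA had 0 called by edgeR (0.388%), 7 at an unadjusted p under 0.05 and 2 by DESeq2 (1.15%). The block fit called FERMT2, CSRP1 and PALLD higher in SRF-RELA (1.73%).

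**Figure D2:**
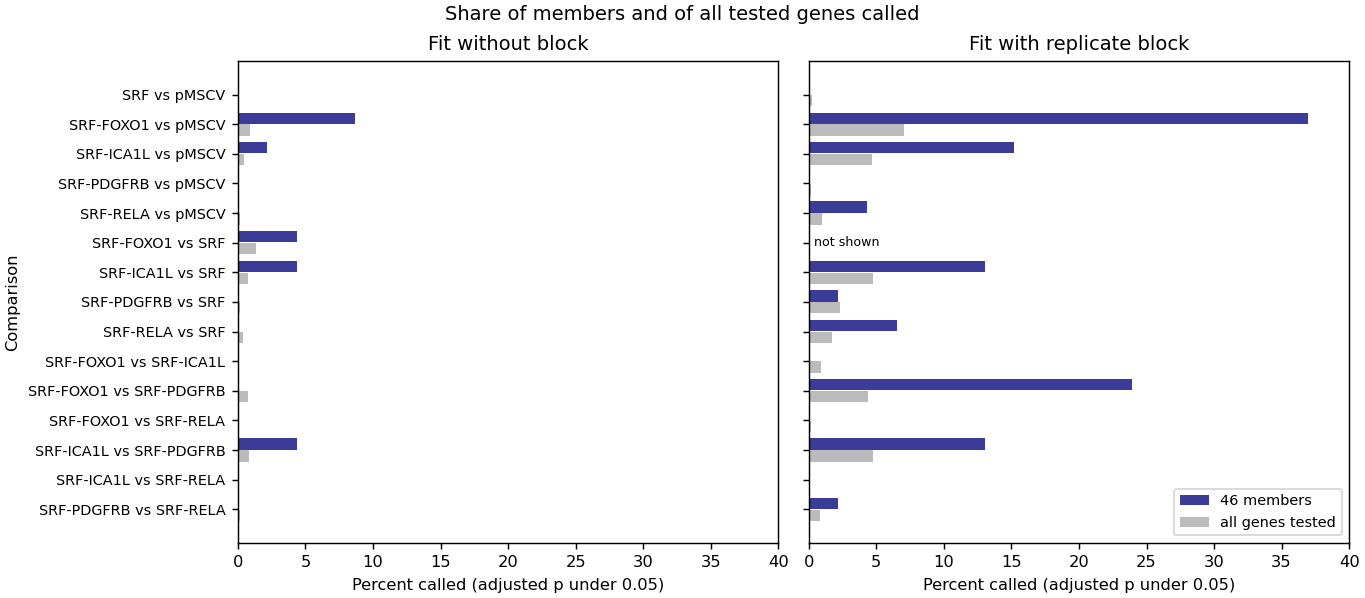
Percent of the 46 genes (dark bars) and of all 18544 tested genes (grey bars) called in each of the 15 pairs of groups, without (left) and with (right) the replicate block. SRF-FOXO1 against pMSCV has the longest dark bars shown, 4 and 17 genes, and the block value of SRF-FOXO1 against SRF is not shown because 1 of its same-number pairs was under the limit for pairing.

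The fusions were also compared with each other. SRF-ICA1L exceeded SRF-PDGFRB in 2 genes, LIMA1 and CSRP1 (0.820% of all genes), and in 6 with the block (FERMT2, PARVA, LIMA1, PDLIM1, FHL3 and CSRP1; 4.76%). Both calls were lost without SRF-ICA1L replicate 2 or 3 or without any 1 SRF-PDGFRB library. SRF-FOXO1 against SRF-PDGFRB had 0 called by edgeR (0.717%), 23 at an unadjusted p under 0.05 and 7 by DESeq2 (2.56%). With the block, 11 were called, all higher in SRF-FOXO1 (SORBS3, PDLIM1, PDLIM5, PDLIM7, FHL1, FHL3, CSRP1, CNN3, CFL2, WDR1 and VASP; 4.35%), and the first fit called 6 without SRF-FOXO1 replicate 1 (1.54% of all genes) and 15 without it and SRF replicate 3 (2.73%). SRF-PDGFRB against SRF-RELA had 0 called by edgeR (0.162%), 3 at an unadjusted p under 0.05 and 1 by DESeq2 (0.653%). The block fit called CSRP1 lower in SRF-PDGFRB (0.847%).

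The 3 pairs among SRF-FOXO1, SRF-ICA1L and SRF-RELA gave 0 calls by edgeR in either fit and 0 by DESeq2. All tested genes were called at 0.0270% for SRF-FOXO1 against SRF-ICA1L, 0.00539% for SRF-FOXO1 against SRF-RELA and 0.0108% for SRF-ICA1L against SRF-RELA, and at 0.911%, 0.167% and 0.0162% with the block. DESeq2 called 0.458%, 0.108% and 0.0216% of all genes in the same order. At an unadjusted p under 0.05 the edgeR counts were 8, 15 and 2 of the 46. These counts do not show that the fusions act alike. A single test over the 6 groups called 2 genes, CSRP1 (adjusted p 0.00883) and WDR1 (adjusted p 0.0124), both by edgeR's adjusted p, against 1.67% of all genes. That count was 1 without SRF replicate 1 (1.23% of all genes) or 2 (1.19%) and 5 without SRF replicate 3 (2.64%). It was 9 without SRF-FOXO1 replicate 1 (2.7%) and 13 without SRF replicate 3 and SRF-FOXO1 replicate 1 together (3.38%).

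Levels differed widely between the genes once divided by exon length. That length joins all annotated exons of a gene over its isoforms, and can exceed that of the transcripts present. The order below therefore depends on the annotation and may differ from an order by transcript. MYH9, the heavy chain of non-muscle myosin IIA, had the highest median over the 18 libraries, at 270.3 CPM per kilobase. PFN1 (profilin, which feeds actin monomers to growing filaments) followed at 250.4, TAGLN2 (transgelin-2, a calponin-like actin binder) at 219 and FLNA (filamin A, which joins filaments into networks) at 207 CPM per kilobase. At the other end were TLN2 at 1.36, CSRP2 at 1.23 and ILK at 1.08 CPM per kilobase. TLN1, which encodes the talin that most cells outside muscle and brain rely on, stood at 63.5. ILK, integrin-linked kinase, shares 78.5% of its exon bases with genes on the other strand, and the strand setting of the counting is not given in the sources used here, though the library kit marks strand. Its low value and its changes are therefore uncertain.

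Among the 10 core adhesion proteins, which hold no gene of the calls made without the block, 4 were called against pMSCV in SRF-FOXO1 with it (VCL, FERMT2, PARVA and SORBS3), 2 in SRF-ICA1L (FERMT2 and PARVA) and 1 in SRF-RELA (FERMT2). Of all genes, 7.03%, 4.66% and 0.971% were called there, in that order. VCL, vinculin, which reinforces the bond between talin and actin under force, was at 383, 501 and 404 CPM with pMSCV, 405, 441 and 356 with SRF, 403, 1312 and 824 with SRF-FOXO1, 524, 719 and 715 with SRF-ICA1L, 433, 533 and 481 with SRF-PDGFRB, and 545, 665 and 599.8 with SRF-RELA. The highest values were those of SRF-FOXO1 replicates 2 and 3, while SRF-FOXO1 replicate 1 lay within the pMSCV range, so these groups overlapped. All libraries of SRF-ICA1L and SRF-RELA lay above all of pMSCV and of SRF. VCL shares 11.1% of its exon bases with genes on the other strand. Its log2 fold change in SRF-FOXO1 against pMSCV was 0.98 (SE 0.28) with edgeR adjusted p 0.129, and 0.91 (SE 0.22) with adjusted p 0.0208 with the block. With 1 library left out, the unblocked value lay between 0.52, without SRF-FOXO1 replicate 2, and 1.30. Its edgeR adjusted p then lay between 0.00305 and 0.418.

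FERMT2, kindlin-2, which activates integrins together with talin, was at 101, 129 and 106 CPM with pMSCV, 106, 119.7 and 106 with SRF, 119.9, 234 and 159 with SRF-FOXO1, 159.7, 228 and 189.8 with SRF-ICA1L, 110.4, 153 and 126 with SRF-PDGFRB, and 133, 213 and 156 with SRF-RELA. Library 2 was the highest of its group in all 6 groups. SRF-ICA1L and SRF-RELA did not overlap pMSCV or SRF, and SRF-FOXO1 lay just above SRF. SRF-ICA1L stood at 0.78 (SE 0.22, edgeR adjusted p 0.168) without and 0.77 (SE 0.11, adjusted p 0.001098) with the block, as log2 fold changes against pMSCV. Against SRF, FERMT2 in SRF-ICA1L had an edgeR adjusted p of 0.123 without and 0.00109 with the block. With the block its adjusted p was 0.0233 in SRF-RELA and 0.00714 in SRF-FOXO1 against pMSCV. The unblocked values of 0.58 (SE 0.22) and 0.61 (SE 0.22) for those 2 groups were 0.37 and 0.32 without replicate 2 of the fusion. They reached 0.72 and 0.80 with another single library left out, and no edgeR adjusted p of such fits was under 0.0675. PARVA, alpha-parvin, a partner of integrin-linked kinase, was at 254, 263 and 234 CPM with pMSCV, 292, 285 and 251 with SRF, 275, 511 and 326 with SRF-FOXO1, 342, 424 and 368 with SRF-ICA1L, 259, 292 and 239 with SRF-PDGFRB, and 302, 406 and 331 with SRF-RELA. Every library of SRF-FOXO1, SRF-ICA1L and SRF-RELA was above every pMSCV library, and SRF-PDGFRB overlapped pMSCV. The block fit gave a log2 fold change of 0.58 (SE 0.14) in SRF-ICA1L (adjusted p 0.0232) and of 0.53 (SE 0.14) in SRF-FOXO1 (adjusted p 0.03001), and adjusted p was 0.218 and 0.169 without it. The unblocked 0.56 (SE 0.18) in SRF-FOXO1 was 0.26 without its replicate 2. It reached 0.72 with another library left out, and the lowest edgeR adjusted p of such fits was 0.0416.

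SORBS3, vinexin, an adaptor that binds vinculin, was at 67.2, 77.4 and 63.4 CPM with pMSCV, 70.3, 77.5 and 91.2 with SRF, 83.8, 98.6 and 90.2 with SRF-FOXO1, 71.8, 81.02 and 86.01 with SRF-ICA1L, 61.3, 73.6 and 64.4 with SRF-PDGFRB, and 66.6, 72.2 and 74.3 with SRF-RELA. SRF-FOXO1 lay above pMSCV and above SRF-PDGFRB in every library. Its log2 fold change was 0.39 (SE 0.09) against pMSCV (adjusted p 0.0217 with the block, 0.137 without) and 0.45 (SE 0.09) against SRF-PDGFRB (adjusted p 0.01396 and 0.0893). LIMS1, PINCH-1, which completes the complex of ILK and parvin, was at 201, 188 and 194 CPM with pMSCV, 176, 179.9 and 146 with SRF, 212, 321 and 207 with SRF-FOXO1, 220.2, 202 and 199 with SRF-ICA1L, 239, 228 and 225 with SRF-PDGFRB, and 186, 205 and 211 with SRF-RELA. SRF was below all other groups without overlap, and SRF-FOXO1 replicate 2 stood alone at the top. Its log2 fold change in SRF-FOXO1 against SRF was 0.56 (SE 0.14) with edgeR adjusted p 0.0619, and 0.33 without SRF-FOXO1 replicate 2. It reached 0.68 with another library left out, and the lowest edgeR adjusted p of such fits was 0.0231. The remaining adhesion genes were not called in any pair in either fit. TLN1 ranged from 424 to 928 CPM, TLN2 from 13.00 to 38.9, the scaffold PXN (paxillin) from 94.6 to 171 and its relative TGFB1I1 (Hic-5) from 90.4 to 127 CPM. PXN was lower in every SRF-ICA1L library than in every pMSCV library, at -0.21 (SE 0.18) on the log2 scale with edgeR adjusted p 0.7400.

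**Figure D3:**
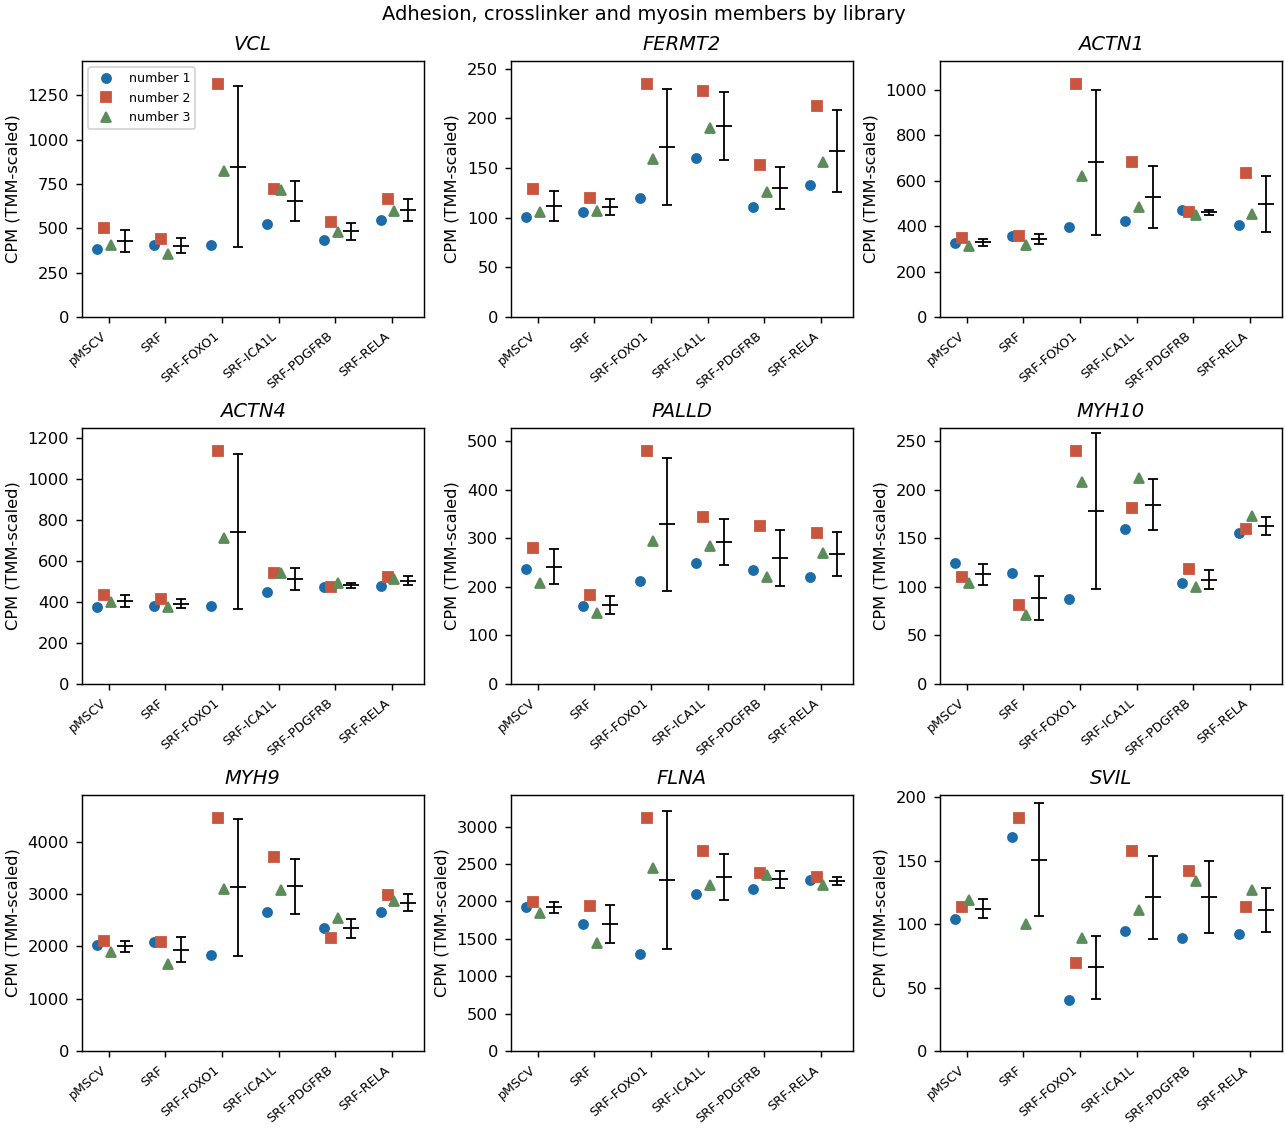
CPM of 9 adhesion, crosslinker and myosin genes in each library, with colours and shapes for replicate numbers and black bars for the group mean ± SD (n = 3). SRF-FOXO1 replicate 2 is the highest library in every panel but that of SVIL, where SRF-FOXO1 replicate 1 is the lowest, and SRF-FOXO1 replicate 1 often lies near the pMSCV libraries.

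The LIM-domain proteins sit on strained actin and on the ends of stress fibres. Against pMSCV, 2 of the 10 were called in SRF-FOXO1 (PDLIM7 and CSRP1) and 6 with the block, and 1 in SRF-ICA1L (CSRP1) and 4 with the block, all higher. The shares of all genes called were 0.928%, 7.03%, 0.469% and 4.66%, in that order. CSRP1 (ENSG00000159176, chr1:201483530-201509456, GRCh38), whose product binds alpha-actinin and zyxin, had the largest called fold changes of the 46 genes. It was at 158, 219 and 197 CPM with pMSCV, 183, 259 and 281 with SRF, 393, 924 and 507 with SRF-FOXO1, 503, 894 and 672 with SRF-ICA1L, 200.4, 243 and 247 with SRF-PDGFRB, and 356, 821 and 473 with SRF-RELA. SRF-FOXO1, SRF-ICA1L and SRF-RELA lay wholly above pMSCV, SRF and SRF-PDGFRB, with library 2 highest and library 1 lowest in each of the 3. SRF-PDGFRB overlapped both pMSCV and SRF.

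Against pMSCV, the log2 fold change of CSRP1 was 1.85 (SE 0.34) in SRF-ICA1L (edgeR adjusted p 0.01895), 1.67 (SE 0.33) in SRF-FOXO1 (adjusted p 0.0296) and 1.52 (SE 0.33) in SRF-RELA (adjusted p 0.0983). In SRF-PDGFRB it was 0.27 (SE 0.33) and in SRF 0.33 (SE 0.33), with adjusted p 1.000 and 0.9498. The block called CSRP1 in SRF-RELA too, at an adjusted p of 5.60e-04. Against SRF, the log2 fold change was 1.52 (SE 0.33) in SRF-ICA1L (adjusted p 0.0479) and 1.34 (SE 0.33) in SRF-FOXO1 (adjusted p 0.0592). SRF-ICA1L exceeded SRF-PDGFRB by 1.58 (SE 0.33) on the log2 scale (adjusted p 0.0382). Leaving out 1 library ended most of these calls. In SRF-FOXO1 against pMSCV the adjusted p was 0.197, 0.0893 and 0.142 without pMSCV replicates 1, 2 and 3, and 0.156 without SRF-FOXO1 replicate 2. In SRF-ICA1L against pMSCV it was 0.132, 0.0684 and 0.1098 without the same 3 and 0.105 without SRF-ICA1L replicate 2. In SRF-ICA1L against SRF it lay between 0.0814 and 0.215 without SRF replicate 1, 2 or 3 or SRF-ICA1L replicate 2 or 3. In SRF-ICA1L against SRF-PDGFRB it lay between 0.0949 and 0.182 without SRF-ICA1L replicate 2 or 3 or any 1 SRF-PDGFRB library.

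**Figure D4:**
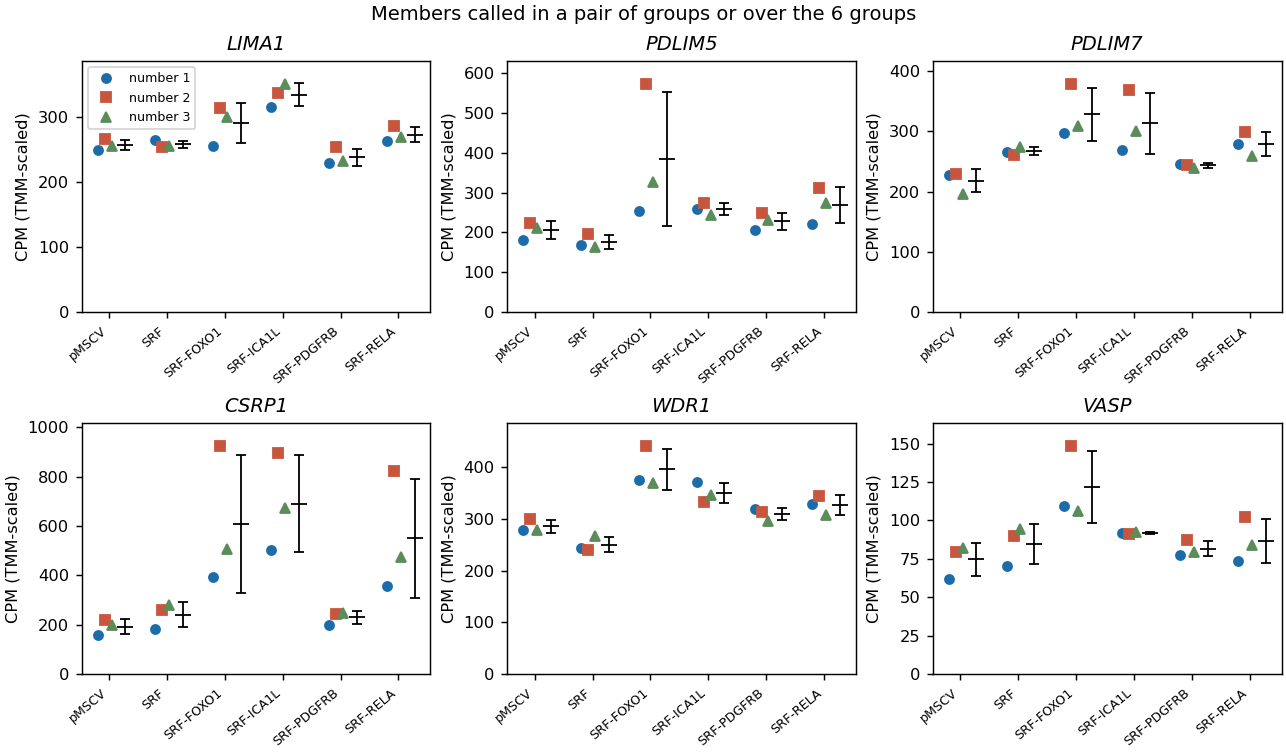
CPM of the 6 genes called in at least 1 pair of groups or over the 6 groups without the block, in each library, with colours and shapes for replicate numbers and black bars for the group mean ± SD (n = 3). CSRP1 separates SRF-FOXO1, SRF-ICA1L and SRF-RELA, at 356 CPM or more, from the other 3 groups, at 281 CPM or less.

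PDLIM7, enigma (ENSG00000196923, chr5:177483394-177497606), ties actin filaments to kinases. It was at 228, 229.6 and 196 CPM with pMSCV, 265, 261 and 275 with SRF, 298, 379 and 308 with SRF-FOXO1, 269, 369 and 301 with SRF-ICA1L, 247, 245 and 239 with SRF-PDGFRB, and 278, 299 and 259 with SRF-RELA. All 5 constructs lay above pMSCV without overlap, and the highest libraries were SRF-FOXO1 replicate 2 and SRF-ICA1L replicate 2. The log2 fold change against pMSCV was 0.59 (SE 0.12) in SRF-FOXO1 (edgeR adjusted p 0.0374) and 0.52 (SE 0.12) in SRF-ICA1L (adjusted p 0.0862, and 0.0119 with the block). The call in SRF-FOXO1 was lost without any 1 pMSCV library or SRF-FOXO1 replicate 2, with adjusted p up to 0.192. PDLIM5 (ENSG00000163110, chr4:94451857-94668227), a relative that binds alpha-actinin and protein kinase C, was at 180.5, 224 and 212 CPM with pMSCV, 169, 196 and 163 with SRF, 254, 574 and 326 with SRF-FOXO1, 259, 274 and 243 with SRF-ICA1L, 206, 249 and 230.1 with SRF-PDGFRB, and 222, 312 and 275 with SRF-RELA. SRF-FOXO1 lay above pMSCV and SRF in every library, and its replicate 2 was far above the other 17 libraries. Against pMSCV, PDLIM5 in SRF-FOXO1 stood at 0.90 on the log2 scale (edgeR adjusted p 0.0695, and 0.00512 with the block). With 1 library left out, the unblocked value lay between 0.50 and 1.11. SRF-FOXO1 exceeded SRF on the log2 scale by 1.12 (SE 0.22, edgeR adjusted p 0.0203). That value was 0.72 without SRF-FOXO1 replicate 2 (adjusted p 0.0679) and up to 1.34 with another library left out. The adjusted p was 0.105 without SRF replicate 1 and 0.0713 without SRF replicate 2.

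LIMA1, eplin (ENSG00000050405, chr12:50175788-50283546), stabilizes actin bundles. Its values were 249.6, 266 and 255 CPM with pMSCV, 265, 254 and 256 with SRF, 256, 314 and 300.1 with SRF-FOXO1, 315, 337 and 351 with SRF-ICA1L, 228, 253 and 232 with SRF-PDGFRB, and 263, 286 and 269.9 with SRF-RELA. SRF-ICA1L lay above every library of pMSCV, SRF, SRF-FOXO1, SRF-PDGFRB and SRF-RELA. It exceeded SRF-PDGFRB by 0.49 (SE 0.10) on the log2 scale (edgeR adjusted p 0.0223). In the blocked fit it also exceeded pMSCV by 0.38 (SE 0.09, adjusted p 0.0199, 0.103 without) and SRF by 0.37 (SE 0.09, adjusted p 0.0218, 0.0886 without). Against SRF-PDGFRB the adjusted p lay between 0.0689 and 0.144 without SRF-ICA1L replicate 2 or 3 or any 1 SRF-PDGFRB library. ZYX, zyxin, which gathers Ena/VASP proteins at strained fibres, was at 249, 255 and 223 CPM with pMSCV, 225, 240.2 and 260.2 with SRF, 280.0, 389 and 307 with SRF-FOXO1, 289.5, 252 and 259 with SRF-ICA1L, 261, 262 and 249 with SRF-PDGFRB, and 263, 270.1 and 259.7 with SRF-RELA. SRF-FOXO1 was above pMSCV and SRF without overlap, at a log2 fold change of 0.42 (SE 0.11) against pMSCV with the block (adjusted p 0.0354, 0.105 without). The unblocked value of ZYX moved from 0.42 (SE 0.12) to 0.28 without SRF-FOXO1 replicate 2. It reached 0.50 with another library left out, and the lowest edgeR adjusted p of such fits was 0.0311.

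PDLIM1, elfin, an alpha-actinin binder, was at 44.8, 59.6 and 74.1 CPM with pMSCV, 58.9, 60.9 and 122 with SRF, 81.8, 113 and 99.6 with SRF-FOXO1, 69.7, 86.3 and 103 with SRF-ICA1L, 47.8, 57.5 and 64.8 with SRF-PDGFRB, and 61.3, 81.4 and 84.02 with SRF-RELA. Its single highest value was in SRF replicate 3, one of the libraries that stood apart, and replicate 3 was the highest in 5 of the 6 groups. With the block, PDLIM1 was higher in SRF-FOXO1 than in pMSCV by 0.75 (SE 0.15, adjusted p 0.00811, 0.215 without) and than in SRF-PDGFRB by 0.80 (SE 0.15, adjusted p 0.00776, 0.196 without). FHL3, a LIM-only protein that can act with transcription factors, was at 24.2, 39.6 and 33.6 CPM with pMSCV, 29.95, 39.5 and 47.8 with SRF, 38.3, 68.9 and 50.6 with SRF-FOXO1, 42.9, 59.3 and 53.1 with SRF-ICA1L, 24.5, 43.7 and 40.6 with SRF-PDGFRB, and 37.3, 48.03 and 47.4 with SRF-RELA. The groups of 3 spanned wide ranges, so SRF-FOXO1 overlapped pMSCV while SRF-ICA1L did not. With the block the log2 change against pMSCV came to 0.69 (SE 0.12) in SRF-FOXO1 (adjusted p 0.00297) and 0.69 (SE 0.12) in SRF-ICA1L (adjusted p 0.00378), and adjusted p was 0.217 and 0.328 without it. The unblocked 0.70 (SE 0.26) of FHL3 in SRF-FOXO1 was 0.46 without its replicate 2. It reached 0.86 with another library left out, and no edgeR adjusted p of such fits was under 0.109. FHL1, its relative, was at 70.2, 67.4 and 75.96 CPM with pMSCV, 72.8, 62.7 and 94.8 with SRF, 82.8, 129 and 90.3 with SRF-FOXO1, 91.2, 51.5 and 70.9 with SRF-ICA1L, 58.03, 48.2 and 56.8 with SRF-PDGFRB, and 84.9, 57.9 and 80.2 with SRF-RELA. SRF-PDGFRB was below pMSCV, SRF and SRF-FOXO1 in every library, and SRF-FOXO1 exceeded it by 0.92 (SE 0.20) with the block (adjusted p 0.0204, 0.0712 without). LPP, a zyxin relative, ranged from 101 to 268 CPM and CSRP2 from 4.08 to 9.54 CPM, and neither was called in any pair in either fit.

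Of the 7 crosslinkers, calls came with the block alone. Against pMSCV it gave 3 in SRF-FOXO1 (ACTN1, ACTN4 and NEXN; 7.03% of all genes) and 1 in SRF-ICA1L (NEXN; 4.66%). ACTN1, alpha-actinin-1, which bundles stress fibres, was at 325, 347 and 315 CPM with pMSCV, 356, 356 and 318 with SRF, 398, 1025 and 619.6 with SRF-FOXO1, 423, 684 and 483 with SRF-ICA1L, 471, 463 and 449 with SRF-PDGFRB, and 404, 636 and 453 with SRF-RELA. All libraries of the 4 fusions were above all of pMSCV and of SRF, and SRF-FOXO1 replicate 2 was the highest. Its log2 fold change in SRF-FOXO1 against pMSCV was 1.05 (SE 0.26, edgeR adjusted p 0.0742) and 0.98 (SE 0.20) with the block (adjusted p 0.00837), and 0.63 without SRF-FOXO1 replicate 2 and without the block. The unblocked value reached 1.30 with another library left out, and the lowest edgeR adjusted p of such fits was 0.00575. ACTN4, its close relative, was at 375, 434 and 398 CPM with pMSCV, 381, 415 and 375 with SRF, 378, 1133 and 713 with SRF-FOXO1, 450.3, 539 and 543 with SRF-ICA1L, 475, 472 and 494 with SRF-PDGFRB, and 477, 521 and 513 with SRF-RELA. The SRF-ICA1L, SRF-PDGFRB and SRF-RELA libraries were above all of pMSCV and SRF, while SRF-FOXO1 replicate 1 lay within the pMSCV range. ACTN4 in SRF-FOXO1 against pMSCV stood at 0.88 (SE 0.25, adjusted p 0.111) and at 0.83 (SE 0.21) with the block (adjusted p 0.0314), and the unblocked value was 0.44 without SRF-FOXO1 replicate 2. That value reached 1.18 with another library left out, and the lowest edgeR adjusted p of such fits was 0.00173. ACTN4 shares 14.2% of its exon bases with genes on the other strand.

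PALLD, palladin, a scaffold that bundles actin along stress fibres, was at 236, 279.9 and 208 CPM with pMSCV, 161, 183 and 146 with SRF, 212, 479 and 295 with SRF-FOXO1, 249.7, 343 and 285 with SRF-ICA1L, 234, 326 and 220.4 with SRF-PDGFRB, and 220.1, 312 and 269 with SRF-RELA. SRF was lower than all other groups without overlap. With the block, PALLD was higher than in SRF by 0.83 (SE 0.15) in SRF-ICA1L (adjusted p 0.00466), 0.70 (SE 0.15) in SRF-RELA (adjusted p 0.02602) and 0.65 (SE 0.15) in SRF-PDGFRB (adjusted p 0.0334). Without the block these adjusted p were 0.149, 0.361 and 0.304, and SRF-FOXO1 against SRF stood at 1.01 (SE 0.25, adjusted p 0.0548), or 0.64 without SRF-FOXO1 replicate 2. This last difference reached 1.23 with another library left out, and the lowest edgeR adjusted p of such fits was 0.00755. PALLD in SRF stood on the log2 scale at -0.56 (SE 0.24) against pMSCV (edgeR adjusted p 0.915, and 0.1704 with the block).

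NEXN, nexilin, an actin binder best known from muscle Z-discs, was at 21.5, 30.4 and 18.8 CPM with pMSCV, 47.6, 41.8 and 45.5 with SRF, 24.2, 61.5 and 37.1 with SRF-FOXO1, 33.7, 59.04 and 40.7 with SRF-ICA1L, 27.5, 34.8 and 26.1 with SRF-PDGFRB, and 24.3, 44.1 and 30.2 with SRF-RELA. Here SRF, too, lay above pMSCV without overlap, as did SRF-ICA1L. The log2 fold change against pMSCV was 0.94 (SE 0.31) in SRF (edgeR adjusted p 0.857, 0.0554 with the block) and 0.92 (SE 0.31) in SRF-ICA1L (adjusted p 0.253, 0.01602 with the block). In SRF-FOXO1 it was 0.80 (SE 0.31, adjusted p 0.237, 0.0333 with the block), and 0.38 without SRF-FOXO1 replicate 2 and without the block. The unblocked value reached 1.05 with another library left out, and no edgeR adjusted p of such fits was under 0.0761. SVIL, supervillin, which links actin and myosin to the membrane, was the single gene wholly lower in SRF-FOXO1 than in pMSCV. Its values were 104, 113 and 119 CPM with pMSCV, 169, 183 and 99.8 with SRF, 39.8, 69.5 and 88.9 with SRF-FOXO1, 94.3, 158 and 111 with SRF-ICA1L, 88.7, 142 and 134 with SRF-PDGFRB, and 92.3, 113 and 127 with SRF-RELA. SRF-FOXO1 was below pMSCV, SRF, SRF-ICA1L and SRF-RELA in every library, and SRF replicates 1 and 2 were the highest. SRF-FOXO1 stood at -1.19 (SE 0.29) against SRF (edgeR adjusted p 0.0549) and at -0.76 (SE 0.29) against pMSCV (adjusted p 0.227, 0.0604 with the block). FLNA ranged from 1297 to 3108 CPM and FLNC, its muscle-enriched relative, from 62.6 to 223 CPM, each with both ends in SRF-FOXO1, the lowest in replicate 1 and the highest in replicate 2. Neither was called in any pair in either fit.

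Of the 8 myosin and calponin-like genes, CNN3 and MYH10 were called, both with the block alone. CNN3, calponin-3, which stabilizes stress fibres, was at 319, 391 and 369.7 CPM with pMSCV, 379, 299 and 445 with SRF, 437, 645 and 647 with SRF-FOXO1, 441, 493 and 579 with SRF-ICA1L, 323, 387 and 459 with SRF-PDGFRB, and 365, 429.6 and 453 with SRF-RELA. All SRF-FOXO1 and SRF-ICA1L libraries were above all of pMSCV. With the block its log2 fold change in SRF-FOXO1 was 0.67 (SE 0.13) against pMSCV (adjusted p 0.00782, 0.103 without) and 0.56 (SE 0.13) against SRF-PDGFRB (adjusted p 0.0262, 0.187 without). MYH10, the heavy chain of non-muscle myosin IIB, was at 125, 110.5 and 104 CPM with pMSCV, 114, 80.7 and 71.2 with SRF, 87.2, 239 and 208 with SRF-FOXO1, 159.7, 181 and 212 with SRF-ICA1L, 104, 118 and 100.2 with SRF-PDGFRB, and 155, 159.9 and 173 with SRF-RELA. SRF-ICA1L and SRF-RELA were above all of pMSCV, SRF and SRF-PDGFRB, whereas the SRF-FOXO1 libraries lay on both sides. SRF-ICA1L against SRF stood at 1.05 (SE 0.27, edgeR adjusted p 0.0866) and at 1.04 (SE 0.27) with the block (adjusted p 0.04597).

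MYH9 ranged from 1655 CPM in SRF replicate 3 to 4440.5 in SRF-FOXO1 replicate 2, and SRF-ICA1L, SRF-PDGFRB and SRF-RELA each lay above pMSCV and SRF without overlap. Measured against pMSCV, the log2 change came to 0.64 (SE 0.23) in SRF-FOXO1 (edgeR adjusted p 0.202) and 0.65 (SE 0.23) in SRF-ICA1L (adjusted p 0.278), so it was not called. The light chains, which bind the heavy chains and tune them, peaked in other libraries. MYL6 had its highest value in SRF replicate 3 (964 CPM, against a lowest of 451) and MYL12B too (417 against 250.2), while MYL12A was highest in SRF-FOXO1 replicate 1 (260.1 against 148). Each of these 3 peaked in a library that favoured short transcripts. MYL12A and MYL12B are nearly identical in sequence, and reads could have been split between them. CNN2 (calponin-2) ranged from 201 to 352 CPM and TAGLN2 from 441 to 724, and neither was called in any pair in either fit.

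Among the 11 assembly and turnover factors, WDR1 and VASP were called without the block. WDR1 (ENSG00000071127, chr4:10074339-10116949), the partner of cofilin in taking filaments apart, was at 279, 299 and 278 CPM with pMSCV, 244, 241 and 267 with SRF, 376, 441 and 370.2 with SRF-FOXO1, 371, 334 and 347 with SRF-ICA1L, 319, 313 and 296 with SRF-PDGFRB, and 328, 345 and 307 with SRF-RELA. SRF was the lowest group, pMSCV came next, and each of the 4 fusions lay above SRF without overlap. SRF-FOXO1, SRF-ICA1L and SRF-RELA also lay above all of pMSCV. SRF-FOXO1 exceeded SRF by 0.66 (SE 0.10) on the log2 scale (edgeR adjusted p 0.00498) and pMSCV by 0.47 (SE 0.10, adjusted p 0.0351). SRF-ICA1L exceeded SRF by 0.48 (SE 0.10, adjusted p 0.0293). The first of these 3 calls was lost without SRF replicate 2 (0.0523) and kept in the other 5 fits without 1 library. SRF-ICA1L against SRF was lost in 5 of 6 such fits, with adjusted p up to 0.157, and kept without SRF replicate 3. SRF-FOXO1 against pMSCV was lost without pMSCV replicate 1, 2 or 3 or SRF-FOXO1 replicate 2, with adjusted p up to 0.2205.

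VASP (ENSG00000125753, chr19:45506579-45526983) lengthens filaments at adhesions. It was at 62.1, 79.6 and 82.04 CPM with pMSCV, 70.1, 89.7 and 94.7 with SRF, 109, 148 and 106 with SRF-FOXO1, 91.8, 90.8 and 92.2 with SRF-ICA1L, 77.8, 87.05 and 79.6 with SRF-PDGFRB, and 73.7, 102 and 84.2 with SRF-RELA. SRF-FOXO1 lay above every library of the other groups, and SRF-ICA1L lay above pMSCV with a very narrow spread. SRF-FOXO1 exceeded pMSCV by 0.70 (SE 0.15) on the log2 scale (edgeR adjusted p 0.0421). In the blocked fit it also exceeded SRF-PDGFRB by 0.57 (SE 0.12, adjusted p 0.0122, 0.104 without). The call against pMSCV was lost without pMSCV replicate 1, 2 or 3 or SRF-FOXO1 replicate 2, with adjusted p up to 0.265. CFL2, the muscle-type cofilin, which severs filaments, was at 96.8, 99.4 and 116 CPM with pMSCV, 111, 93.3 and 149 with SRF, 148, 190.3 and 157 with SRF-FOXO1, 124, 105 and 141 with SRF-ICA1L, 104, 99.2 and 112 with SRF-PDGFRB, and 102, 132 and 129 with SRF-RELA. SRF-FOXO1 was above pMSCV, SRF-ICA1L, SRF-PDGFRB and SRF-RELA in every library, and overlapped SRF through SRF replicate 3. Measured against pMSCV, the log2 change came to 0.68 (SE 0.14) with the block (adjusted p 0.00882, 0.07004 without). ACTR3, a subunit of the branching Arp2/3 complex, was at 195, 233 and 229 CPM with pMSCV, 194, 187 and 229 with SRF, 269.8, 299 and 259.9 with SRF-FOXO1, 252, 238 and 260.1 with SRF-ICA1L, 242, 259 and 244 with SRF-PDGFRB, and 204, 258 and 229 with SRF-RELA. All SRF-FOXO1 libraries were above all of pMSCV and SRF, with 0.44 (SE 0.11) on the log2 scale against SRF (edgeR adjusted p 0.0681).

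ENAH, the VASP relative Mena, had the widest ratio of highest to lowest library after CSRP1 and SVIL, from 187 CPM in SRF replicate 3 to 721 in SRF-FOXO1 replicate 2. SRF-ICA1L and SRF-RELA were above pMSCV and SRF without overlap, but no pair was called, and SRF-ICA1L stood at 0.74 (SE 0.30) against pMSCV on the log2 scale (edgeR adjusted p 0.377). CFL1, the main non-muscle cofilin, ranged from 715 to 1314 CPM and PFN1 from 404 to 833, both highest in SRF replicate 3. CAPZA1, which caps filament ends, ranged from 198 to 260.4 CPM, and DIAPH1, a formin that lengthens unbranched filaments, from 108 to 142, the narrowest spans of the 46. ARPC5 (Arp2/3 complex) ranged from 183 to 283 CPM and CORO1C (coronin, at filament branches) from 199 to 300.2. None of these 7 genes was called in any pair in either fit. CFL1, PFN1, TAGLN2 and MYL6 have processed pseudogenes, and how the counting treated reads shared with them is not given in the sources used here.

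A count free of any model was made of genes whose 3 libraries in one group all lay above the 3 of another. In SRF-FOXO1 against pMSCV, 23 of the 46 genes lay wholly above (10.4% of all tested genes did) and 1, SVIL, wholly below (8.73%). In SRF-ICA1L, 26 lay above (11%) and 1, PXN, below (7.58%). SRF-RELA had 15 above (7.43%) and 0 below (5.64%), and SRF-PDGFRB had 10 above (5.17%) and 1, FHL1, below (4.65%). SRF had 3 above (PDLIM7, NEXN and MYL6; 5.29%) and 3 below (LIMS1, PALLD and WDR1; 4.52%). Against SRF, SRF-FOXO1 had 13 above (6.89%) and 1, SVIL, below (5.52%), and SRF-ICA1L had 20 above (8.47%) and 0 below (6.55%). SRF-RELA had 17 above SRF (7.93%) and 0 below (7.74%), and SRF-PDGFRB had 9 above (8.69%) and 4 below (9.08%). TLN1, FLNA, ACTN1, ACTN4 and MYH9 lay above pMSCV in each of SRF-ICA1L, SRF-PDGFRB and SRF-RELA. Of these 5 genes, SRF-FOXO1 replicate 1 was at or below the highest pMSCV library in all but ACTN1.

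The shorter and the longer of the 46 genes parted most in the pair of libraries that stood apart. In SRF replicate 3, the 23 shorter genes (under the median exon length of 6855.5 bases) had a median of 0.21 on the log2 scale relative to the mean of the 18 libraries and the 23 longer ones -0.41. In SRF-FOXO1 replicate 1 the medians were 0.15 and -0.23. SRF-FOXO1 replicate 2 was high in both, at 0.42 and 0.72, with the longer genes higher. The longer genes were also higher in some other libraries, such as SRF-ICA1L replicate 2 (0.15 and 0.35) and SRF-RELA replicate 2 (0.01 and 0.23). Against pMSCV, the median log2 fold changes of the shorter and longer genes were 0.42 and 0.47 in SRF-FOXO1 and 0.30 and 0.28 in SRF-ICA1L. Against SRF they were 0.28 and 0.55 in SRF-FOXO1 and 0.11 and 0.46 in SRF-ICA1L, where SRF replicate 3 enters. What gave these libraries their length trend was not tested.

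**Figure D5:**
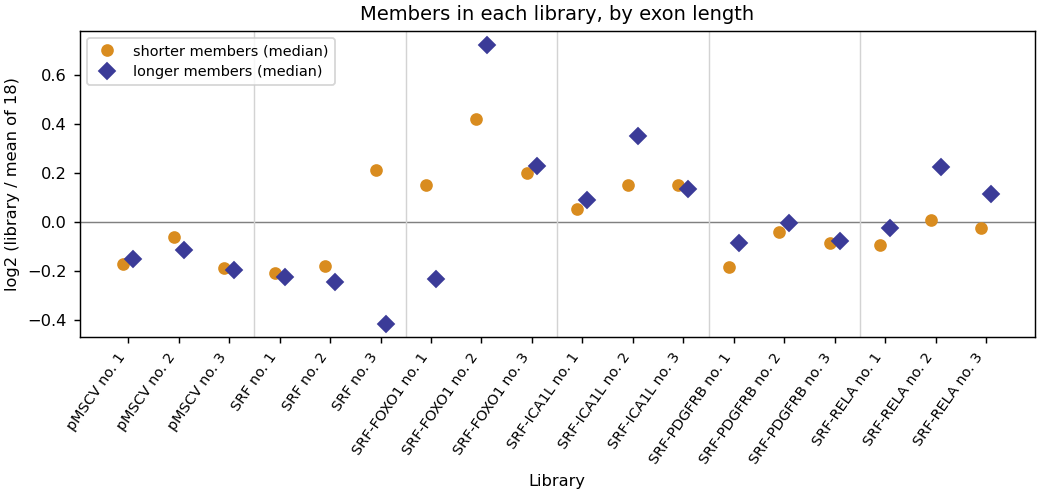
Median log2 level of the 23 shorter (circles) and 23 longer (diamonds) genes in each of the 18 libraries, relative to the mean of all libraries. The shorter genes stand above the longer ones most in SRF replicate 3 and SRF-FOXO1 replicate 1. SRF-FOXO1 replicate 2 is highest in both, with the longer genes above the shorter.

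The replicate number, whose meaning the labels do not give, went with the level of many genes, in the list of 46 and outside it. In a fit with group and number, 16 of the 46 genes differed between numbers (24.6% of all tested genes did): TLN2, FERMT2, PARVA, PXN, TGFB1I1, PDLIM1, PDLIM5, FHL3, CSRP1, FLNC, ACTN1, PALLD, NEXN, CNN2, CNN3 and VASP. Of these, TLN2 and PXN were lower in library 2 than in library 1 on average, TLN2 with a log2 difference of -0.57 (edgeR adjusted p over the 3 numbers 0.0108). The other 14 were higher in library 2, FLNC by 0.81 (adjusted p 0.00272), CSRP1 by 0.77 (adjusted p 0.00162) and FHL3 by 0.61 (adjusted p 3.20e-04). The count ranged from 9 to 19 when 1 library was left out, with 9 without SRF-RELA replicate 1 or 2 (20.2% and 19.6% of all genes), 10 without SRF-ICA1L replicate 3 or SRF-PDGFRB replicate 3, and 19 without SRF-FOXO1 replicate 1 (25.4%).

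A further 79 genes of the same systems, not in the list of 46, were counted for context, and all were tested. Against pMSCV without the block, 0 were called by edgeR in SRF-FOXO1 (0.928% of all genes), with 25 at an unadjusted p under 0.05 and 8 called by DESeq2 (2.89%). In SRF-ICA1L 2 were called, both higher: LIMS2 (PINCH-2, 3.07, SE 0.63 on the log2 scale, adjusted p 0.04799) and DAAM1 (a formin, 1.13, SE 0.23, adjusted p 0.0407). With the block, 12 were higher and 2 (FMNL2 and WASL) lower in SRF-FOXO1 (7.03% of all genes were called), 8 higher in SRF-ICA1L (4.66%), 2 higher in SRF-RELA (0.971%), LIMS2 among them, and 1 higher in SRF (LIMS2; 0.243%), while SRF-PDGFRB had 6 at an unadjusted p under 0.05 and 0 called by edgeR. Against SRF without the block, 5 were called higher in SRF-FOXO1 (1.36% of all genes). Among them were BCAR1 (the adhesion adaptor p130Cas, 0.76, SE 0.17), its relative NEDD9 (2.06, SE 0.44) and the bundling proteins FSCN1 (0.67, SE 0.13) and PLS3 (1.03, SE 0.21), all as log2 fold changes. The value of NEDD9 was 1.36 without SRF-FOXO1 replicate 2 and up to 2.41 with another library left out. DAAM1 was called in SRF-ICA1L against SRF (1.23, SE 0.23, adjusted p 0.0198). Over the 79 genes the median log2 fold change against pMSCV was 0.20 in SRF-FOXO1 and 0.15 in SRF-ICA1L, beside 0.43 and 0.29 over the 46. Each of these 8 calls without the block was lost in 3 to 5 of 6 fits without 1 library, with adjusted p up to 0.243 (LIMS2). All 8 were lost without replicate 2 of the fusion, the 2 against pMSCV also without any 1 pMSCV library, and the 6 against SRF also without SRF replicate 1 or 2. Single calls were further lost without SRF-ICA1L replicate 3 (LIMS2 and DAAM1 against pMSCV), SRF replicate 3 (DAAM1 against SRF among them) and SRF-FOXO1 replicate 3 (BCAR1).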

How the data were processed

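The deposited table holds raw read counts per Ensembl gene for 18 libraries of polyadenylated RNA, prepared with a kit that marks strand, per the labels' protocols. The authors used FastQC 0.11.8, Trimmomatic 0.39, HISAT2 (given as version 2.12.1) and featureCounts of Subread 2.0.3 with GRCh38, per the submitters' processing notes. The annotation release and the strand setting are not given in the sources used here. Of 61487 identifiers, 61369 were named from a table of gene names and 105 more from GENCODE 29, which also gave exon lengths and coordinates. The library totals of 19362319 to 29806771 counts set the counting precision.

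Groups came from the treatment label. Genes were filtered with edgeR's filterByExpr at a minimum count of 10, scaled by TMM and tested with edgeR 4.0.16 (R 4.3.3), by the two-sided quasi-likelihood test modelling each of the groups by its own coefficient (12 residual degrees of freedom), in 15 pairs, in 1 test over the 6 groups and in 1 test of the replicate number. The code was tested on simulated data. Log2 fold changes carry standard errors derived from the F value of the test. The 46 genes, their roles and the other lists were chosen with earlier results of these data known. Each of the 46 called in a pair, with or without the block, is given by library, and the others by their range. Some results on the 79 context genes are not reported here.

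Samples with the same number deviated together in 44 of 45 pairs across groups (correlation of log deviations over 0.1; median 0.375, against a median of -0.180 in 90 pairs of different numbers). The exception was SRF with SRF-FOXO1, at 0.0875 for number 1. The block fit had 10 residual degrees of freedom and lowered the biological coefficient of variation from 0.225 to 0.150. No per-sample column of the table lacked a sample. Alternatives covered scaling, filters, DESeq2 1.42.0, the block, exon length and leaving out libraries.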

Additional observations from a re-analysis of the deposited data

How the results depend on the processing

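No alternative turned the direction of a call. Counts of the 46 genes called are given in the order SRF-FOXO1, SRF-ICA1L and SRF-RELA against pMSCV, then the fusions in the same order of FOXO1, ICA1L, PDGFRB and RELA against SRF, SRF-FOXO1 and SRF-ICA1L against SRF-PDGFRB, SRF-PDGFRB against SRF-RELA, and the test over the 6 groups, for which the main values were 4, 1, 0, 2, 2, 0, 0, 0, 2, 0 and 2. The replicate block gave 17, 7, 2, 17, 6, 1, 3, 11, 6, 1 and 17. In SRF-FOXO1 against SRF, where the pairing limit was missed, the 17 (against 7.23% of all genes) were SVIL, lower, and 16 higher: VCL, FERMT2, LIMS1, ZYX, PDLIM5, FHL3, CSRP1, ACTN1, ACTN4, PALLD, MYH10, CNN3, CFL2, WDR1, VASP and ACTR3. Of the 79 context genes, 13 were called in that fit. Over the 6 groups the blocked 17 stood against 8.77% of all genes. The block with a correction for exon length, chosen after the data were seen, gave 24, 11, 2, 19, 12, 1, 3, 16, 7, 1 and 22. In the same order it called 8.22%, 5.19%, 0.938%, 9.04%, 5.78%, 2.84%, 1.83%, 4.65%, 5.12%, 0.857% and 10.3% of all genes. DESeq2 gave 11, 3, 1, 13, 6, 1, 2, 7, 2, 1 and 13. Its shares of all genes were 2.89%, 1.76%, 0.701%, 3.88%, 2.41%, 1.23%, 1.15%, 2.56%, 2.49%, 0.653% and 6.36%.

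Without SRF replicate 3 and SRF-FOXO1 replicate 1, also chosen after the data were seen, the counts that moved were 20 and 5 for SRF-FOXO1 and SRF-ICA1L against pMSCV, 22 and 4 for both against SRF, 15 and 4 for both against SRF-PDGFRB, and 13 over the 6 groups. Of all genes, 4.0%, 0.974%, 5.5%, 1.36%, 2.73%, 2.08% and 3.38% were called, in that order. The length correction alone gave 8 for SRF-FOXO1 (1.72% of all genes) and 0 for SRF-ICA1L (0.83%) against SRF. It gave 1 for SRF-FOXO1 against SRF-PDGFRB (0.782%) and 5 over the 6 groups (1.78%). Total count scaling gave 2 for SRF-FOXO1 against pMSCV (0.798% of all genes) and 4 for SRF-FOXO1 against SRF (1.36%). It gave 1 for SRF-ICA1L against SRF (0.798%) and 1 against SRF-PDGFRB (0.906%). With only the 2 groups in the fit, which leaves fewer residual degrees of freedom, the count was 0 for SRF-FOXO1 against pMSCV and for SRF-FOXO1 and SRF-ICA1L against SRF, and 1 for SRF-ICA1L against SRF-PDGFRB. Those fits called 0.0292%, 0.00584%, 0.423% and 0.586% of all genes. Without a count filter the count was 0 for SRF-ICA1L against pMSCV (0.207% of all genes), SRF (0.37%) and SRF-PDGFRB (0.39%) and 1 over the 6 groups (1.06%). A minimum of 10 counts in every library gave 1 for SRF-ICA1L against SRF (0.558% of all genes) and against SRF-PDGFRB (0.406%). Asking also for a log2 change of 1 or more in size left 1 for SRF-FOXO1 against pMSCV and SRF, SRF-ICA1L against SRF and SRF-PDGFRB and the 6 groups, and 0 for the replicate number, against 16. Of all genes, 0.733%, 0.868%, 0.62%, 0.663%, 1.35% and 5.87% were left, in that order. The cause of these shifts was not tested.

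Leaving out 1 library gave 0 to 15 for SRF-FOXO1 against pMSCV and against SRF, 0 to 6 against SRF-PDGFRB, 0 to 2 for SRF-ICA1L against pMSCV, 0 to 1 against SRF and 0 to 2 against SRF-PDGFRB, 0 to 1 for SRF-RELA against pMSCV, 1 to 9 over the 6 groups and 9 to 19 for the replicate number. With 3 libraries a group, calls near the threshold can be lost when 1 library is left out. Genes with few counts, such as ILK and CSRP2, are measured less closely.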
